A study of Homo sapiens with 4 samples.

Results

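Transcripts of 52 genes for ribosome biogenesis and the RNA exosome were followed in HGC27 cells, a human gastric cancer cell line, after knockdown of AARS1. The members were taken by symbol from the 14431 genes of the deposited table. The symbols were those that begin with UTP, NOP, NOL or EXOSC and a number, 6 WD-repeat genes (WDR3, WDR12, WDR36, WDR43, WDR46 and WDR75), and KIAA0020, SKIV2L2, DIS3, FBL, DKC1, NCL, NPM1, NOLC1, BOP1, PES1, RRP1B and RRP12. All 52 passed the filter on low values, so none was lost from the comparison. The fewest reads behind any value of a member were 240.

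Ribosomes are built in the nucleolus from a long precursor RNA made by RNA polymerase I. The small subunit processome, with its UtpA and UtpB complexes, folds and cuts the part that becomes the small subunit, while the PeBoW complex and other factors process the part that becomes the large subunit. Small nucleolar ribonucleoproteins (snoRNPs) guide the methylation and pseudouridylation of this RNA. The RNA exosome, a ring of inactive subunits under a cap, feeds RNA to its nucleases and trims the ends of ribosomal precursors. In the nucleus, the helicase SKIV2L2 (now MTREX) delivers many of these substrates.

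RNA was sequenced from 2 control libraries and from 2 libraries of cells given an siRNA to AARS1 (siAARS1). This gene is that of the cytosolic alanyl-tRNA synthetase. The controls are labelled wild type, but their library names carry NC where those of the knockdown carry si. These labels do not say whether the control cells received a control siRNA. The paper names a scramble control for other assays of AARS1 knockdown. The cells of all 4 libraries were kept in DMEM lacking glucose, with serum and with 25 mM lactate. The labels give 24 h under lactate and the text of the study another duration, so the time is uncertain. No library without lactate was analysed here. HGC27 is a single established line, and nothing in the labels says whether the libraries of a group came from separate cultures. The p-values therefore rest on the spread between libraries, which may be technical. For each gene, limma estimates that spread in part from the other genes, so it is not that of the gene's own libraries alone. In such bulk samples, fewer cells of a type and less RNA per cell cannot be told apart.

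The libraries held 30653210 to 33522573 reads in the listed genes, and 1 read was worth 0.0293 to 0.0324 CPM (reads scaled to library size). AARS1, listed as AARS, stood at 428 and 417 CPM in the control libraries and at 292 and 298 CPM in the siAARS1 libraries. The knockdown therefore left 69.7% of the control level (log2 fold change -0.52 ± 0.0357, SE, limma adjusted p = 2.52e-11). Of the epithelial markers, KRT8 was at 24.8 and 25.2 CPM in the controls and at 6.61 and 5.08 CPM after knockdown, CDH1 was at 0.680 to 2.55 CPM, and KRT18 and EPCAM were not among the listed genes. The gastric mucosa markers MUC5AC, TFF1, TFF2 and GKN1 and the leukocyte markers PTPRC and CD3E were not listed either. The mesenchymal marker VIM lay at 4600 to 5131 CPM, and COL1A1, a fibroblast collagen, went from 2320 and 2399 CPM to 1644 and 1541 CPM. The part of these shifts in the results below was not tested.

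The members as a group were higher after AARS1 knockdown. Of the 52, 40 rose (76.9%), 3 fell and 9 were not called by limma on log2(CPM + 1) at an adjusted p under 0.05. Over all 14199 genes tested, 32.6% rose and 38.0% fell, together 70.7%. Of the members, 14 rose at least 2-fold and 0 fell at least 2-fold, against 10.6% and 1.63% of all genes. On the log2 scale the median change was 0.32 in the members and -0.05 in all genes. The rises were spread widely, with 17 of the 40 below 0.5 on the log2 scale. In 50 of the members the 2 groups did not overlap, but this held for 85.1% of all genes.

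These counts depend on how the libraries are put on a common scale. Scaling the libraries to the same median lowered every log2 fold change by 0.22, after which 26 members were higher and 11 lower, against 23.3% and 57.6% of all genes. The median of all genes was then -0.27 and that of the members 0.10. Change also followed the base composition of the transcripts across the whole table, as described below. With the trend on transcript GC content and length taken out of each library, 41 of the 51 members with a known transcript were higher and 4 lower, against 32.0% and 34.1% of all genes. With the trend on the GC content and length of the coding sequence taken out instead, 34 were higher and 2 lower, against 31.6% and 35.1% of all genes. The median member stood at 0.40 and 0.28 on the log2 scale under these corrections. The number at least 2-fold higher went from 14 to 7 and to 3, and over all genes this share went from 10.6% to 3.21% and 1.71%. Of the 43 members called, 18 kept their call and direction under every alternative tried, and all 18 were rises. The like share over all genes was not computed, so the 18 cannot be set against it.

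**Figure D1:**
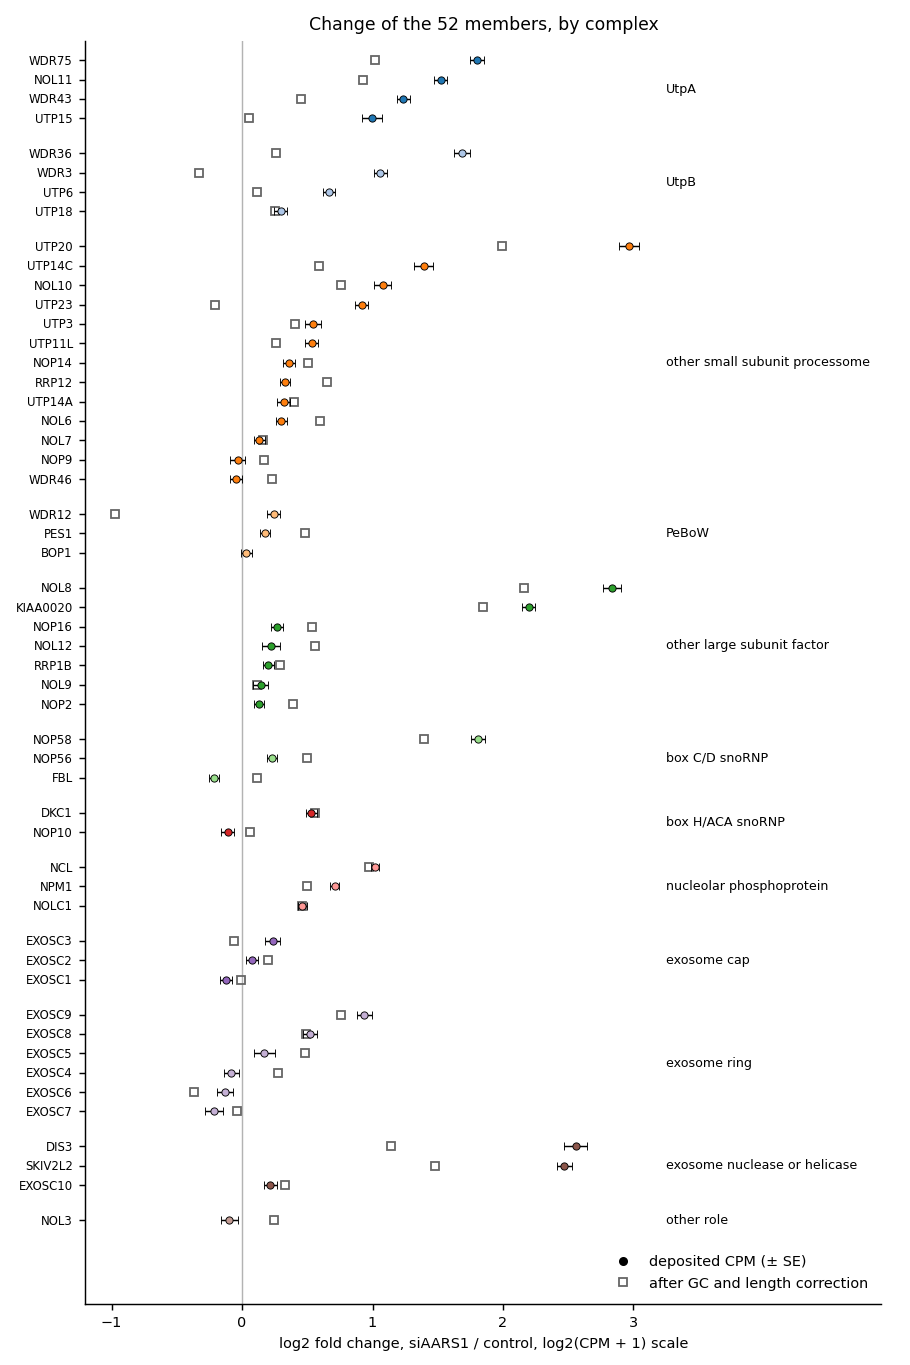
Log2 fold change (siAARS1 over control, on the log2(CPM + 1) scale) of the 52 members, grouped by complex. Filled points with bars are the values with their limma SE (2 libraries per group, spread estimated in part from other genes). Open squares are the values after the transcript GC content and length correction. UTP20, NOL8, DIS3, SKIV2L2 and KIAA0020 lie farthest to the right before the correction, WDR12, WDR3, UTP23 and EXOSC3 cross to the left of 0 after the correction, and scaling to a common median would move every filled point left by 0.22.

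The largest rises were those of UTP20, NOL8 and DIS3. UTP20, a large helical-repeat protein of the small subunit processome (chr12:101280109-101386616, plus strand, GENCODE v29 on GRCh38), stood at 9.06 and 7.57 CPM in the controls and at 70.6 and 72.6 CPM after knockdown. The libraries of each group lay close together and far from the other group, with means 8.61-fold apart (log2 fold change 2.97 ± 0.0775, SE, limma adjusted p = 1.60e-18). NOL8, a nucleolar protein with a role in large subunit precursor processing (chr9:92297358-92325636, minus strand), went from 9.33 and 10.3 CPM to 76.4 and 76.2 CPM (log2 fold change 2.84 ± 0.0684, SE, limma adjusted p = 4.49e-19). DIS3, the processive nuclease at the base of the exosome (chr13:72752169-72782096, minus strand), was at 7.48 and 9.36 CPM in the controls and at 50.6 and 57.9 CPM after knockdown (log2 fold change 2.56 ± 0.0902, SE, limma adjusted p = 2.13e-16). All 3 remained higher under both corrections, but by less. UTP20 went to 1.99 with the transcript correction and 0.64 with the coding sequence correction, NOL8 to 2.16 and 1.10, and DIS3 to 1.14 and 0.98.

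The promoters of the members were searched for the E-box CACGTG, a palindrome that reads the same on both strands and is bound by MYC, a known driver of ribosome biogenesis genes. RefSeq windows of 300 bases (GRCh38.p14, 250 before to 50 after the start) were matched for 43 of the 52 members. The motif was present in 15 of the 43 (34.9%), in 26.8% of 112 other genes of the same pathways, in 9.95% of 10548 other tested genes and in 7.44% of all 27305 promoters of this length. Within 30 bases on either side of the start, it was present in 10 members (23.3%), 15.2% of the other pathway genes and 2.52% of the other tested genes. These 10 are shown as the members with the motif closest to the start, its first base lying between 11 bases before the start and position 16 counted from 1 at the start. Each run of 30 bases has the E-box in its middle, in capitals, and is written 5′ to 3′ on the strand of the gene.
UTP20 (chr12:101280083-101280112, plus strand): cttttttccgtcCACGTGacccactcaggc
NOL8 (chr9:92325342-92325371, minus strand): gctccgttgggaCACGTGaccagaagttag
WDR43 (chr2:28894658-28894687, plus strand): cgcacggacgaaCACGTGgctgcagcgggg
NOP14 (chr4:2963374-2963403, minus strand): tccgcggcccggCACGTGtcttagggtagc
NOL6 (chr9:33473894-33473923, minus strand): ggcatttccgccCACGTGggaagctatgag
UTP18 (chr17:51260538-51260567, plus strand): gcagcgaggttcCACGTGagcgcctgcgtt
PES1 (chr22:30591880-30591909, minus strand): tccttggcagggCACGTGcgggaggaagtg
EXOSC5 (chr19:41397328-41397357, minus strand): caactgcagccgCACGTGggctcggcgcga
NOP10 (chr15:34343130-34343159, minus strand): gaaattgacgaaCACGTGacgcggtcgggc
FBL (chr19:39846356-39846385, minus strand): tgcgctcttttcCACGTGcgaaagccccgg

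These 10 genes did not move alike. UTP20 and NOL8, the members with the largest rises, both carry the motif just before the start, but so does NOP10, which was not called. FBL, which fell, carries it just after the start, as do WDR43, UTP18, NOL6, PES1 and NOP14, which rose. In all, 7 of the 10 rose, 1 fell, and EXOSC5 and NOP10 were not called, while 32.6% of all genes rose and 38.0% fell. Of the 15 members with an E-box anywhere in the window, 11 rose and 1 fell (median log2 fold change 0.30), and of the 28 without it, 23 rose and 1 fell (median 0.53). The order of these medians turned with the transcript correction, to 0.45 with the E-box and 0.36 without it. The transcripts of the 2 sets had median GC contents of 48.4% and 44.1%. Of 1050 other tested genes with an E-box, 37.24% rose (median 0.003), and of 9498 without it, 33.35% rose (median -0.064). Motifs of other factors were found in fewer members. Searched on both strands, the ETS motif CCGGAAG was in 27.9% of the members, 44.6% of the other pathway genes and 19.3% of the other tested genes. The YY1 motif AAGATGGCG was in 4.65%, 8.93% and 3.99% of them. A match describes the letters of the window and no binding was measured.

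**Figure D2:**
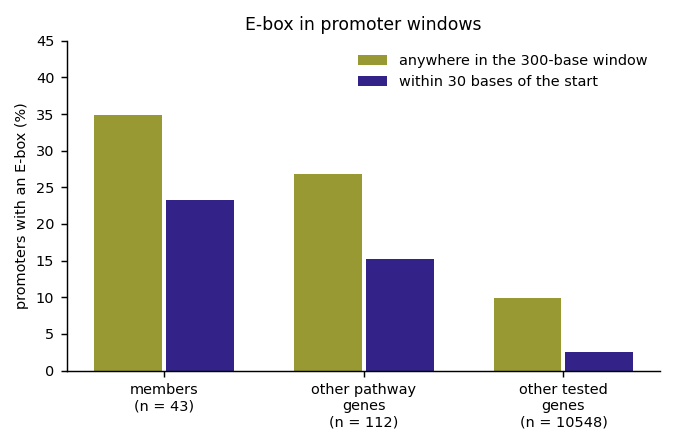
Share of promoter windows (%) that hold the E-box CACGTG in the members, in other genes of the same pathways and in all other tested genes, anywhere in the window or within 30 bases of the start. The members had it near the start in 23.3% of windows and the other tested genes in 2.52%.

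Nearly all small subunit factors were higher after knockdown. Of the 21, 19 rose, 0 fell and 2 were not called (NOP9 at -0.03 and WDR46 at -0.05), with a median log2 fold change of 0.66, while 32.6% of all genes rose and 38.0% fell. Scaling to a common median left 15 higher and 2 lower, against 23.3% and 57.6% of all genes. The coding sequence correction left 13 higher and 1 lower, with a median of 0.19, against 31.6% and 35.1% of all genes. The 4 UtpA genes among the members, whose proteins bind the start of the precursor RNA, all rose by 1.00 to 1.80 on the log2 scale, led by WDR75, which went from 32.7 and 31.6 CPM to 113 and 116 CPM. NOL11 rose by 1.52 and WDR43 by 1.24, and UTP15 by 1.00. After the coding sequence correction the median of these 4 was 0.04, and WDR43 alone of them was called higher (0.59).

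The 4 UtpB genes, which encode another scaffold of the processome, rose as well, by 0.30 in UTP18, 0.66 in UTP6, 1.06 in WDR3 and 1.68 in WDR36. WDR36 was at 17.2 and 18.7 CPM in the controls and at 59.2 and 60.5 CPM after knockdown. Their rises shrank with both corrections, to medians of 0.18 and 0.04, and WDR3 was lower after the transcript correction (-0.33). Among the other 13, UTP20 was followed by UTP14C at 1.39 and NOL10 at 1.08, and then by UTP23 at 0.92. UTP14C is a retrotransposed copy of UTP14A that lies within ALG11 on the same strand, so its reads cannot be told apart with certainty from those of either gene. UTP14A itself rose by 0.32. NOL10 was lower after the coding sequence correction (-0.15) and UTP23 after the transcript correction (-0.20). Rises of 0.30 to 0.54 were measured for UTP3, UTP11L (now UTP11), NOP14, RRP12, which serves in the export of precursor subunits, and NOL6. NOL7 rose by 0.13, and not without control replicate 2 (0.11, limma adjusted p = 0.0906). RRP12, NOL6 and NOP14 changed more after the transcript correction than before it, with 0.65, 0.60 and 0.50.

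Among the 10 large subunit factors, 9 rose, 0 fell and BOP1 was not called, but only NOL8 and KIAA0020 exceeded 2-fold. Of all genes, 32.6% rose, 38.0% fell and 10.6% rose at least 2-fold. Scaling to a common median left 2 higher and 1 lower, with a median of -0.01, against 23.3% and 57.6% of all genes. With either correction 7 of 9 were higher and 1 lower. Of all genes, 32.0% were higher and 34.1% lower with the transcript correction, and 31.6% and 35.1% with the coding sequence correction. KIAA0020 (now PUM3), a nucleolar Puf-family RNA-binding protein, went from 26.0 and 26.3 CPM to 124 and 123 CPM (log2 fold change 2.20 ± 0.0503, SE, limma adjusted p = 1.94e-19). It kept 1.85 and 1.04 of that rise under the transcript and coding sequence corrections. The other 5 (NOP16, NOL12, RRP1B, NOL9 and NOP2) rose by 0.13 to 0.27 on the log2 scale, none of them past the threshold after scaling to a common median. NOP2, a methyltransferase of the large subunit RNA, was at 170 and 171 CPM in the controls and at 188 and 186 CPM after knockdown. The call of NOL9, a polynucleotide kinase, was lost without control replicate 1 or 2 or siAARS1 replicate 2 (log2 fold change 0.09 to 0.16, limma adjusted p from 0.0832 to 0.255), and that of NOL12 without control replicate 2 or siAARS1 replicate 2 (0.14 and 0.13, limma adjusted p = 0.141 and 0.208). The identifier listed as NOL12 has another name in GENCODE v29 and overlaps NOL12 and TRIOBP, so that value may not be NOL12 alone.

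The PeBoW complex, whose 3 subunits act together in large subunit maturation, changed little. PES1 was at 168 and 171 CPM in the controls and at 197 and 186 CPM after knockdown (log2 fold change 0.18, limma adjusted p = 0.000601). BOP1 was at 97.3 and 100.5 CPM and at 100.3 and 102 CPM (log2 fold change 0.03, limma adjusted p = 0.496). WDR12 was at 64.8 and 66.9 CPM and at 75.9 and 80.3 CPM (log2 fold change 0.24, limma adjusted p = 0.000168). The groups overlapped in BOP1 and not in the other 2, but they did not overlap in 85.1% of all genes either. The direction of WDR12 depended on the correction. It was -0.98 with the transcript correction, where the chosen transcript was 8100 bases long, and -0.29 with the coding sequence correction, and was called lower in both. After scaling to a common median PES1 was at -0.04 and BOP1 at -0.19.

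The snoRNP proteins split. NOP58, a core protein of the box C/D class that guides methylation, went from 38.2 and 43.2 CPM to 146 and 143 CPM (log2 fold change 1.80 ± 0.0536, SE, limma adjusted p = 1.17e-17). Its partner NOP56 went only from 321 and 309 CPM to 364 and 373 CPM (log2 fold change 0.23, limma adjusted p = 1.03e-05). Fibrillarin (FBL), the methyltransferase of the same particle, was at 303 and 291 CPM in the controls and at 261 and 250 CPM after knockdown (log2 fold change -0.21 ± 0.0383, SE, limma adjusted p = 3.93e-05). The 3 proteins of 1 particle thus moved by -0.21 to 1.80 on the log2 scale, in 2 directions. FBL has a GC-rich transcript and its direction turned with both corrections, to 0.11 and 0.07, while NOP58 remained higher, at 1.40 and 0.54. In the box H/ACA class, which guides pseudouridylation, DKC1, the pseudouridine synthase, rose from 190 and 183 CPM to 264 and 277 CPM (log2 fold change 0.53, limma adjusted p = 9.02e-11). NOP10, a small core protein, was at 91.9 and 82.9 CPM and at 79.1 and 82.5 CPM (log2 fold change -0.11, limma adjusted p = 0.0613). It was called lower without control replicate 2 (-0.18, limma adjusted p = 0.00924). By GENCODE v29, 6 members carry 18 snoRNA genes inside them (NOP56, NOP58, NCL, WDR43, DKC1 and NOL11). All 6 hosts rose, 4 of them by at least 2-fold, against 32.6% and 10.6% of all genes. With the transcript correction those 4 (NOP58, NCL, NOL11 and WDR43) were at 1.40, 0.98, 0.93 and 0.45. With the coding sequence correction they were at 0.54, 0.51, -0.01 and 0.59, and NOL11 was not called. NOP56 lost its call after scaling to a common median (0.009). The snoRNAs themselves were not analysed here.

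The nucleolar phosphoproteins and chaperones, 3 of the 5 most abundant members per length in the controls, all rose. NCL, nucleolin, which binds the precursor RNA, went from 1045 and 1044 CPM to 2101 and 2134 CPM (log2 fold change 1.02 ± 0.0338, SE, limma adjusted p = 7.17e-17). NPM1, nucleophosmin, a histone and ribosome chaperone, went from 1496 and 1535 CPM to 2469 and 2490 CPM (log2 fold change 0.71 ± 0.0345, SE, limma adjusted p = 5.69e-14). NOLC1, which chaperones snoRNPs, went from 560 and 557 CPM to 768 and 773 CPM (log2 fold change 0.46, limma adjusted p = 6.45e-11). These 3 rises remained calls under every alternative, at 0.51, 0.23 and 0.51 with the coding sequence correction. NPM1 has 45 pseudogenes named after it, and reads could be shared with them. Summed over all members, the values were 6590 and 6608 CPM in the controls and 10196 and 10288 CPM after knockdown, or 0.670% and 0.673% against 1.03% and 1.04% of all listed CPM. NPM1, NCL and NOLC1 made up 47.1% and 47.4% of the control sums and 52.4% and 52.5% of the siAARS1 sums. Without them the sums were 3490 and 3472 CPM in the controls and 4858 and 4891 CPM after knockdown.

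The 12 exosome genes moved unevenly. Of them, 6 rose, 2 fell and 4 were not called, against 32.6% higher and 38.0% lower among all genes. Their median log2 fold change was 0.19, and with the libraries scaled to a common median it was -0.03, where that of all genes was -0.27. In the cap, whose proteins line the entry for RNA, EXOSC1 was at 72.3 and 71.6 CPM in the controls and at 66.4 and 65.8 CPM after knockdown (log2 fold change -0.12, limma adjusted p = 0.0274). EXOSC2 was at 77.1 and 74.7 CPM and at 80.6 and 79.5 CPM (log2 fold change 0.08, limma adjusted p = 0.150), and EXOSC3 went from 40.6 and 42.2 CPM to 48.1 and 49.8 CPM (log2 fold change 0.23, limma adjusted p = 0.000801). The fall of EXOSC1 was the weakest call of a fall. It was lost without control replicate 1 or 2 or siAARS1 replicate 2 (log2 fold change -0.13 to -0.11). With the transcript and coding sequence corrections EXOSC1 was not called (-0.01 and 0.05), and EXOSC2 was called higher (0.20 and 0.14). EXOSC3 was not called with the transcript correction (-0.06) and was called higher with the other (0.32).

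In the ring, 2 of 6 subunits rose (33.3%), close to the 32.6% of all genes, and 1 fell (16.7%, against 38.0% of all genes). EXOSC9 went from 28.7 and 27.6 CPM to 55.0 and 54.7 CPM (log2 fold change 0.94 ± 0.0577, SE, limma adjusted p = 3.65e-12), and EXOSC8 from 53.2 and 54.8 CPM to 74.8 and 81.0 CPM (log2 fold change 0.52, limma adjusted p = 1.14e-08). EXOSC7 was at 33.6 and 29.7 CPM in the controls and at 27.1 and 26.9 CPM after knockdown (log2 fold change -0.22, limma adjusted p = 0.00847), a call that was lost without control replicate 1 (-0.13, limma adjusted p = 0.207). The remaining ring subunits were not called. EXOSC4 was at 49.2 and 49.5 CPM and at 45.6 and 47.7 CPM, EXOSC5 at 16.4 and 17.1 CPM and at 19.5 and 18.5 CPM, and EXOSC6 at 29.9 and 29.8 CPM and at 27.3 and 27.0 CPM. In these 3 genes the groups did not overlap, by small margins, as in 85.1% of all genes. Their log2 fold changes were -0.08, 0.17 and -0.13 (limma adjusted p = 0.187, 0.0600 and 0.0778). With the transcript and coding sequence corrections the ring genes stood differently. EXOSC9 kept its call with both (0.76 and 0.21), while EXOSC8 lost it with the coding sequence correction (0.05). The fall of EXOSC7 was not called with either (-0.04 and -0.07). EXOSC5 (0.48 and 0.47) and EXOSC4 (0.28 and 0.29) were called higher with both, and EXOSC6 was called lower with the transcript correction (-0.37) and not called with the other (0.07).

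DIS3 and SKIV2L2, which work on the ring, had larger rises than its subunits in the deposited values. SKIV2L2 (MTREX), the helicase that unwinds nuclear substrates, went from 20.6 and 22.4 CPM to 119 and 129 CPM (log2 fold change 2.47 ± 0.0577, SE, limma adjusted p = 2.60e-19), beside the rise of DIS3 given above. SKIV2L2 remained higher with the transcript and coding sequence corrections, at 1.48 and 0.53, the latter close to the 0.47 of EXOSC5. EXOSC10, another nuclease, which is concentrated in the nucleolus, went from 79.6 and 77.9 CPM to 94.4 and 89.2 CPM (log2 fold change 0.22, limma adjusted p = 0.000300). EXOSC10 was at 0.33 with the transcript correction. Its call was lost with the coding sequence correction (-0.03) and after scaling to a common median (-0.0018). On the scale of CPM per kilobase of transcript, SKIV2L2 was at 0.155 and 0.190 of the median of the 9 cap and ring genes in the controls and at 0.763 and 0.833 of it after knockdown. DIS3 was at 0.0222 and 0.0314 of that median and then at 0.128 and 0.148. For EXOSC10 the ratio overlapped between the groups, at 0.890 and 0.987 and at 0.904 and 0.861. The low ratios of DIS3 rest on a chosen transcript of 10604 bases, and the ratio of a gene between libraries does not depend on that length.

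**Figure D3:**
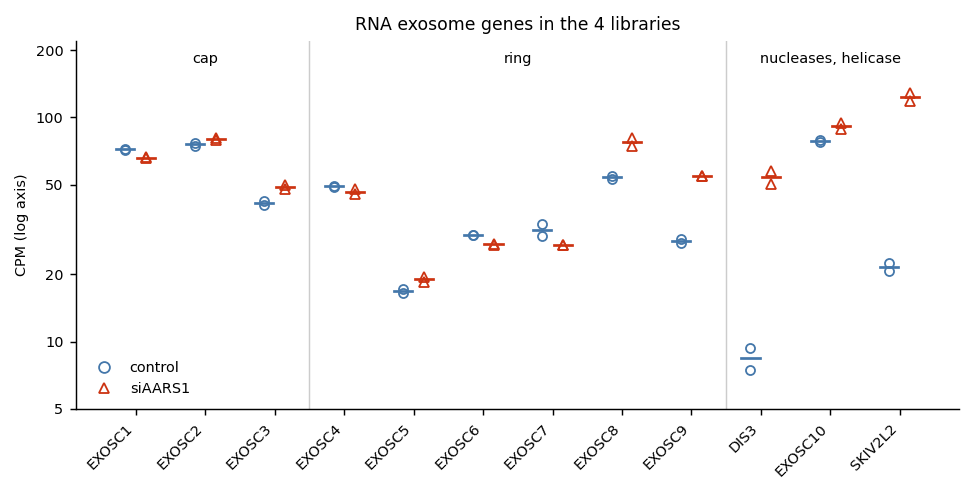
CPM (log axis) of the 12 exosome genes in each of the 2 control and 2 siAARS1 libraries, with a line at the mean of each group. The means of DIS3 and SKIV2L2 are 6.45-fold and 5.75-fold apart, while the cap and ring genes other than EXOSC8 and EXOSC9 lie near their control level.

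The size of a member's change went with the GC content of its transcript. Across the 51 members with a GENCODE v29 transcript, the log2 fold change had a Spearman correlation of -0.75 with GC content and 0.44 with length, and across 13819 tested genes these were -0.65 and 0.30. Genes are not independent replicates, and all of these values come from the same 4 libraries. The genes were also divided by GC content into 5 groups of nearly equal size. In the group with the lowest GC content, the median log2 fold change was 1.52 for 11 members and 0.77 for all genes. In the next groups the medians were 0.66 for 15 members against 0.21, 0.21 for 12 members against -0.12, 0.18 for 9 members against -0.24, and 0.05 for 4 members against -0.30. In each of the 5 groups the median member lay above the median gene. WDR12 and EXOSC3, at 40.2% and 42.0% GC, were among the members below the median gene of like GC content, while NCL, at 47.2% GC, lay far above it. What links GC content to the change was not tested.

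**Figure D4:**
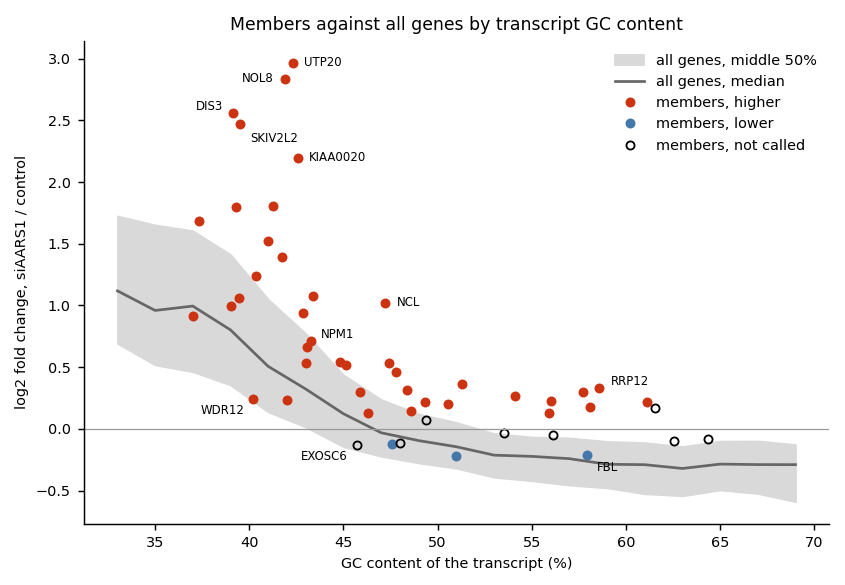
Log2 fold change (siAARS1 over control) against the GC content of the transcript (%) for 51 members, with the median and the middle 50% of all tested genes in bins of GC content. Most members lie above the gene median, the largest rises (UTP20, NOL8, DIS3, SKIV2L2 and KIAA0020) lie between 39.1% and 42.6% GC, and scaling to a common median would lower members and genes alike by 0.22.

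Per kilobase of transcript, the members covered a wide range of levels in the controls, from 0.794 CPM per kilobase for DIS3 and 0.921 for UTP20 to 862 for NPM1. NCL (259) and FBL (256) came next to NPM1, followed by NOP10 (158) and NOLC1 (142). After knockdown the range was 5.12 for DIS3 to 1411 for NPM1, and the order was largely retained (Spearman correlation 0.88 across 51 members). DIS3, UTP20 and NOL8 held the 3 lowest control levels and rose 6.45-fold, 8.61-fold and 7.77-fold. NOL3, which the symbols take although it encodes a repressor of apoptosis, was at 32.6 and 32.8 CPM in the controls and at 29.9 and 31.1 CPM after knockdown and was not called (log2 fold change -0.10, limma adjusted p = 0.175). Libraries of 1 group differed in a member by a factor of 1.03 at the median and 1.25 at most.

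**Figure D5:**
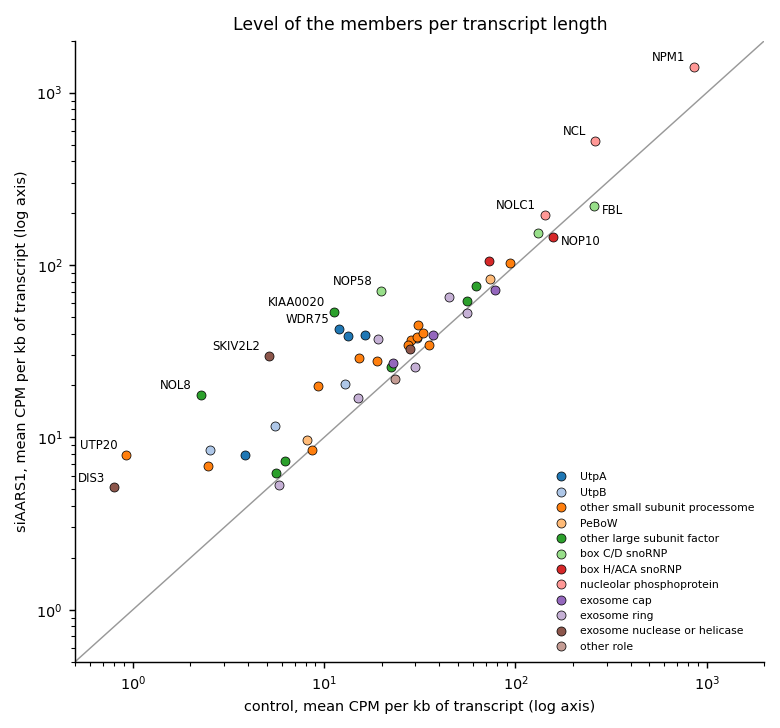
Mean level of 51 members in siAARS1 against control libraries (CPM per kilobase of transcript, both axes logarithmic), coloured by complex, with the line of equal level. The members with the lowest control levels, DIS3 (0.794) and UTP20 (0.921), lie far above the line, and FBL and NOP10 lie below it.

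Genes of the same pathways that the symbols do not cover were read from 5 lists with 126 genes in all. Of these 86 rose, 11 fell and 29 were not called, 27 rose at least 2-fold and 0 fell as much, against 32.6% higher, 38.0% lower and 10.6% at least 2-fold higher among all genes. The median log2 fold change was 0.26. After scaling to a common median it was 0.04, and 55 were higher and 40 lower. Of all genes, 23.3% were then higher and 57.6% lower, with a median of -0.27. Under that scaling 7 of the RNA polymerase I factors were higher and 4 lower, and 12 and 14 of the other small subunit factors. Of the other large subunit factors 25 were higher and 12 lower, of the snoRNP factors 2 and 6, of the exosome partners 9 and 4. With the transcript correction 92 of 123 were higher and 11 lower, against 32.0% and 34.1% of all genes. With the coding sequence correction 72 were higher and 11 lower, against 31.6% and 35.1% of all genes. The number at least 2-fold higher went from 27 to 11 and to 2, and over all genes from 10.6% to 3.21% and 1.71%. By list, the medians with the coding sequence correction were 0.08 (RNA polymerase I), 0.23 (small subunit), 0.28 (large subunit), 0.15 (snoRNP) and 0.03 (exosome partners). With it 7 of the RNA polymerase I factors were higher and 3 lower, and 7 and 2 of the exosome partners. In the deposited values, the factors of RNA polymerase I transcription rose in 11 of 15 and fell in 2. This transcription is the step that makes the precursor RNA. TWISTNB (now POLR1F), a subunit of the polymerase, rose by 1.68 on the log2 scale and TAF1D, a subunit of its selectivity factor, by 1.11. The polymerase subunits ZNRD1 (now POLR1H) and POLR1D fell, at -0.26 and -0.29.

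Other factors of small subunit assembly rose in 21 of 36 and fell in 3, while 32.6% of all genes rose and 38.0% fell. ESF1 rose by 2.25 and HEATR1, a further UtpA protein, by 2.18, from 46.0 and 47.2 CPM to 212 and 219 CPM. TBL3, a further UtpB protein, was at -0.36, and WBSCR22 (now BUD23), a methyltransferase of the small subunit RNA, at -0.25. Other factors of large subunit assembly rose in 37 of 48 and fell in 2. CEBPZ and NOC3L, which act in early large subunit precursors, rose by 2.81 and 2.31, while GLTSCR2 (now NOP53), an adaptor that brings the exosome to these precursors, was at -0.47 and SENP3, a SUMO protease, at -0.13.

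Of the assembly factors and other proteins of snoRNPs, 6 of 12 rose and 2 fell, against 32.6% and 38.0% of all genes. ZNHIT6 and NUFIP1, assembly factors of box C/D particles, rose by 1.31 and 0.51. RUVBL2 and PIH1D1, of the R2TP chaperone complex, were at -0.33 and -0.51. Among 15 partners of the exosome 11 rose and 2 fell. TTC37 (now SKIC3), the scaffold of the cytoplasmic SKI complex, went from 7.83 and 9.65 CPM to 59.0 and 65.1 CPM (log2 fold change 2.70 ± 0.0842, SE, limma adjusted p = 2.64e-17). The other subunits of that complex, the helicase SKIV2L (now SKIC2) and WDR61 (now SKIC8), were at -0.29 and -0.17 and were called lower. ZFC3H1, which links polyadenylated nuclear RNA to the exosome, rose by 2.21. Of the 10 rises named here from the 5 lists, 9 were still called higher after the transcript correction. They lay at 0.55 (TWISTNB) to 1.94 (CEBPZ), with TTC37 at 1.33 and HEATR1 at 1.11, and NUFIP1 was called lower (-0.41). The coding sequence correction, not given here gene by gene, left 2 genes of the 5 lists at least 2-fold higher, against 1.71% of all genes. Of the falls, PIH1D1 and GLTSCR2 were still called lower after the transcript correction (-0.18 and -0.10), SENP3 was called higher (0.16), and the others were not called.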

How the data were processed

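The authors deposited 1 table of CPM values for 14431 genes in 4 libraries. RSEM 1.3.3 and the hg38 build are named in the submitters' processing notes. The annotation, the use of strand and the scaling of the CPM are not given in the sources used here. All values (100%) lay within 0.0006 CPM of a whole multiple of 1 read, and reads were recovered from them. The library sizes behind the CPM lay 0.749% to 1.89% above the sums of these reads. Replicates differed beyond counting noise (chi-square per gene 3.63 and 3.62), so all were used. A fold change is the difference of log2(CPM + 1), which understates changes of low genes. Genes averaging 1 CPM or more in either group were tested with limma 3.58.1 (eBayes with trend, R 4.3.3), with Benjamini-Hochberg adjustment over 14199 genes at 0.05. SE is from limma and n = 2 per group. The fit was tested on simulated data.

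Every member may be named, and per list up to 2 called rises and 2 called falls. Members and lists were chosen with earlier results of these data known. Alternatives were edgeR 4.0.16 and DESeq2 1.42.0 on recovered reads, other scalings, pseudocount, filter and threshold, the replicate block, leaving out each library, and trends on GC content and length (mgcv 1.9.3, GENCODE v29, GRCh38). Such trends also remove true changes that follow these properties. In GENCODE v29, 21 members overlap another listed gene, 3 of them on the same strand. BOP1's identifier was not found there.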

Additional observations from a re-analysis of the deposited data

How the results depend on the processing

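Counts of members moved most with the scaling. With 40 higher and 3 lower at first, median scaling gave 26 and 11, quantile normalization 8 lower, edgeR with library size 5 lower and DESeq2 1 lower. Of all 14199 genes, 5399 were lower at first, 8173 with median scaling and 6776 with quantile normalization. With edgeR and library size 5589 were lower, and with DESeq2 3856. On the recovered reads, edgeR with TMM called 9806 genes in all and DESeq2 8355, against 10032 by limma, and 42 and 40 members higher. Leaving out each library gave 37 to 40 higher and 1 to 3 lower, the 1 without control replicate 1. The 86 higher and 11 lower of the other pathway genes became 55 and 40 with median scaling, and 22 were lower with quantile normalization. Equal replicate numbers were not shown to pair the libraries (correlation of deviations 0.12). With the replicate block 41 members were higher and 4 lower. In this balanced design the block cannot alter a log2 fold change, only its p-value. The knockdown of AARS1 stayed past the threshold under every alternative (log2 fold change -0.74 to -0.29).

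Some members changed sign. The GC content and length correction gave log2 fold changes of -0.33 for WDR3, -0.20 for UTP23, -0.98 for WDR12 and -0.061 for EXOSC3. It gave 0.17 for NOP9, 0.23 for WDR46, 0.28 for EXOSC4, 0.25 for NOL3, 0.061 for NOP10 and 0.11 for FBL. Adding the replicate block cannot alter these values. The coding sequence correction, chosen after seeing the data, gave -0.011 for NOL11, -0.15 for NOL10, -0.13 for UTP15, -0.085 for UTP18, -0.29 for WDR12, -0.029 for EXOSC10, 0.19 for NOP9, 0.16 for WDR46, 0.29 for EXOSC4, 0.28 for NOL3, 0.071 for NOP10, 0.052 for EXOSC1, 0.068 for EXOSC6 and 0.068 for FBL. Median scaling, which lowers all values alike, gave -0.0018 for EXOSC10, -0.018 for RRP1B, -0.044 for PES1, -0.048 for EXOSC5, -0.077 for NOL9, -0.087 for NOP2, -0.088 for NOL7, -0.14 for EXOSC2 and -0.19 for BOP1, and quantile normalization gave -0.063 for EXOSC5, -0.026 for NOL9 and -0.0086 for BOP1. NOP9, near 0 in all, was at 0.017 with DESeq2, 0.0019 with edgeR and TMM, 0.0030 with a minimum of 10 reads and between -0.10 and 0.035 when each library was left out in turn, and WDR46 was at 0.0057 with DESeq2. Apart from median scaling, the cause of these turns was not tested. The minimum of 1 CPM left no member out, and depth limits none of the larger changes, while differences near 0.1 on the log2 scale lie at the edge of what 2 libraries per group resolve.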
